A study of Mus musculus with 8 samples.

Results

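The estrogen receptor genes Esr1 and Esr2, the estrogen-related receptor genes Esrra, Esrrb and Esrrg, the glucocorticoid receptor gene Nr3c1 and the mineralocorticoid receptor gene Nr3c2 were examined in retinal RNA of Rbfox2-/- and control mice. They were taken as the rows of the deposited gene table that carry these 7 symbols, and all 7 had a row among the 17500 genes of the table. All 7 also passed the filter on low counts, which kept 16797 genes. The family was chosen by the difference of Esr1 between the groups, which had passed a false discovery rate (FDR) of 0.05 in an earlier examination of the same data, and the other 6 genes were added by kinship. Its difference is therefore given as a description and supports nothing further.

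Whole retinas of 4 Rbfox2-/- mice (labelled Rbfox2 KD: M893, M901, M902, M909) and of 4 controls (M833, M894, M896, M898) were sequenced, 1 poly(A)-selected library per mouse. The mice were 6 months old and of the C57BL/6J background. By the study's methods, the Rbfox2-/- mice were Rbfox2 fl/fl with LoxP sites around part of Rbfox2 and carried 1 copy of a Cre-ERT2 transgene. It expresses Cre recombinase fused to a mutated human estrogen receptor ligand-binding domain. The study describes Cre activity of this line in the retina mainly in ganglion cells and amacrine cells, with sparse cells near the outer plexiform layer, so that whole retina mixes cells with and without the deletion. Tamoxifen by oral gavage activated the fusion protein in adult mice. The controls were age-matched heterozygous Rbfox2 fl/+ mice, and the methods do not state whether they carried the transgene or received tamoxifen or corn oil. The sample labels give tamoxifen and 4 months for every mouse, controls included. Loss of Rbfox2, the Cre-ERT2 transgene and any difference in tamoxifen exposure cannot be told apart here.

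Per mouse, 160630226 to 211283591 fragments fell on genes. The detection limit was set at 3 counts, which is 0.0142 to 0.0187 counts per 1000000 counts of the library (CPM) and covers counting error only. Means are given ± SD over the 4 mice of a group (n = 4), and SE stands for the standard error of a log2 fold change. Rbfox2 had between 53.6 and 59.4 CPM in the Rbfox2-/- mice and between 143.8 and 156.8 CPM in the controls. M901 and M902 stood apart, with 1440 and 1739 CPM of Xist, the X inactivation RNA, against 1.71 to 2.22 CPM in the other 6 mice. Both are Rbfox2-/- mice, and no control had such a level. Sex, as far as Xist tells it, was thus unbalanced between the groups, and the comparison had no covariate for it. Where leaving out M901 and M902 turned a direction or moved a value by over 1.5 times, the value without them is given. The neighbours of Esr1 and the genes Glul, Sgk1 and Mt1 were not followed in this way. Of 18 marker lists, 2 had sums that did not overlap between the groups. The 4 cone markers Arr3, Opn1sw, Opn1mw and Gnat2 summed to between 782 and 899 CPM in Rbfox2-/- retinas and to between 733 and 740 CPM in controls, so that cone transcripts were present in every library, as the retinal label calls for. The 3 horizontal cell markers Lhx1, Onecut1 and Calb1 summed to between 71.6 and 75.0 CPM against 89.0 to 92.7 CPM. Of these 3 genes, 1 was itself past the FDR threshold, and how far the sum rested on that gene was not tested. The paper describes calbindin as a marker of amacrine cells as well as horizontal cells. It reports that calbindin staining appeared unaffected in Rbfox2-/- retinas. Staining shows protein and the sum is RNA, and whether horizontal cells shifted was not tested. Single mice also stood apart in markers of tissue beside the retina. The 5 pigment epithelium markers Rpe65, Best1, Rgr, Lrat and Ttr summed to 199.0 CPM in M909 and 155.5 CPM in M894. In the other 6 mice their sum was between 79.0 and 122.8 CPM. The 4 melanocyte markers Tyr, Dct, Mlana and Pmel summed to 136.6 CPM in M894 and 301.5 CPM in M898, against 7.77 to 61.2 CPM in the other 6 mice. The 5 sclera and fibroblast markers (Dcn, Lum, Col1a1, Col1a2 and Pdgfra) summed to 15.1 CPM in M901 and 16.6 CPM in M902, against 24.8 to 33.1 CPM in the other mice. The part of all these shifts in the differences of the receptor genes was not tested. In whole retina, fewer cells of a type and less RNA per cell cannot be told apart.

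Steroid receptors are transcription factors that bind a hormone in their carboxy-terminal domain and DNA through 2 zinc fingers. The hormone releases the receptor from chaperones, and the receptor then binds response elements and recruits coactivators. Estrogen receptors respond to estradiol and to tamoxifen, the glucocorticoid receptor to cortisol or corticosterone, and the mineralocorticoid receptor to aldosterone and corticosterone. The estrogen-related receptors resemble the estrogen receptors in sequence but are active without a known natural steroid ligand and control genes of mitochondrial energy metabolism.

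Which response element a receptor recognises depends on a stretch of 6 codons in the first zinc finger, the P box. Its codons are shown because they set the 3 groups of receptors apart. They were read from the GENCODE M21 transcript with the longest coding sequence (GRCm38), 5′ to 3′ on the coding strand, with the codons 2, 3 and 6, which differ between steroid receptor classes, in capitals.
Esr1: tgcGAAGGCtgcaagGCT
Esr2: tgtGAAGGAtgtaagGCC
Esrra: tgtGAGGCCtgcaaaGCC
Esrrb: tgcGAGGCTtgcaagGCG
Esrrg: tgtGAAGCCtgcaagGCA
Nr3c2: tgcGGCAGCtgcaaaGTC
The sequence of Nr3c1 is not shown. The Esr1 stretch lay at chr10:4746768-4746785 on the plus strand, in exon 4 of 10 of its transcript. Esr2 shared 14 of the 18 bases with Esr1 and all of the encoded residues. The Esrra, Esrrb and Esrrg stretches, which encode the same residues as each other, shared 13, 14 and 15 bases with Esr1 and differed from it in 1 encoded residue. Nr3c2 shared 12 bases and differed in 3 encoded residues.

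Estrogen receptor alpha, the product of Esr1, is the main mediator of estradiol in reproductive tissues and bone. Esr1 (ENSMUSG00000019768.16, GRCm38, chromosome 10, 4611593 to 5005614, plus strand) had 733, 891, 694 and 870 counts in the Rbfox2-/- mice M893, M901, M902 and M909. It had 436, 427, 504 and 427 counts in the controls, listed from M833 to M898. Scaled to the library, the Rbfox2-/- mice had 4.17, 4.62, 4.37 and 4.53 CPM and the controls 2.09, 2.41, 2.63 and 2.41 CPM, in the same order of mice. Every Rbfox2-/- mouse was above every control, and the lowest Rbfox2-/- mouse was 1.58-fold above the highest control. The means were 4.42 ± 0.200 CPM and 2.39 ± 0.222 CPM, a fold of 1.85 and a log2 fold change of 0.89 (SE 0.093). The choice rested on its adjusted p of 0.00820 (quasi-likelihood test of edgeR, Benjamini-Hochberg adjustment over all genes tested), the fifth lowest p of all.

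M901 and M902, the libraries with high Xist, had a mean of Esr1 that was 1.88-fold the control mean, and the other 2 Rbfox2-/- mice a mean that was 1.82-fold the control mean. Without M901 and M902 the log2 fold change was 0.86, with 2 Rbfox2-/- mice left, and the adjusted p from edgeR was 0.204. Without M901 alone it was 0.87 (edgeR adjusted p = 0.0560). The annotation has no other gene that overlaps Esr1. The table gives 1 count per gene, so that the place of the reads along Esr1 was not analysed, and reads of the Cre-ERT2 transgene, if any were assigned to Esr1, cannot be told apart from its own.

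**Figure D1:**
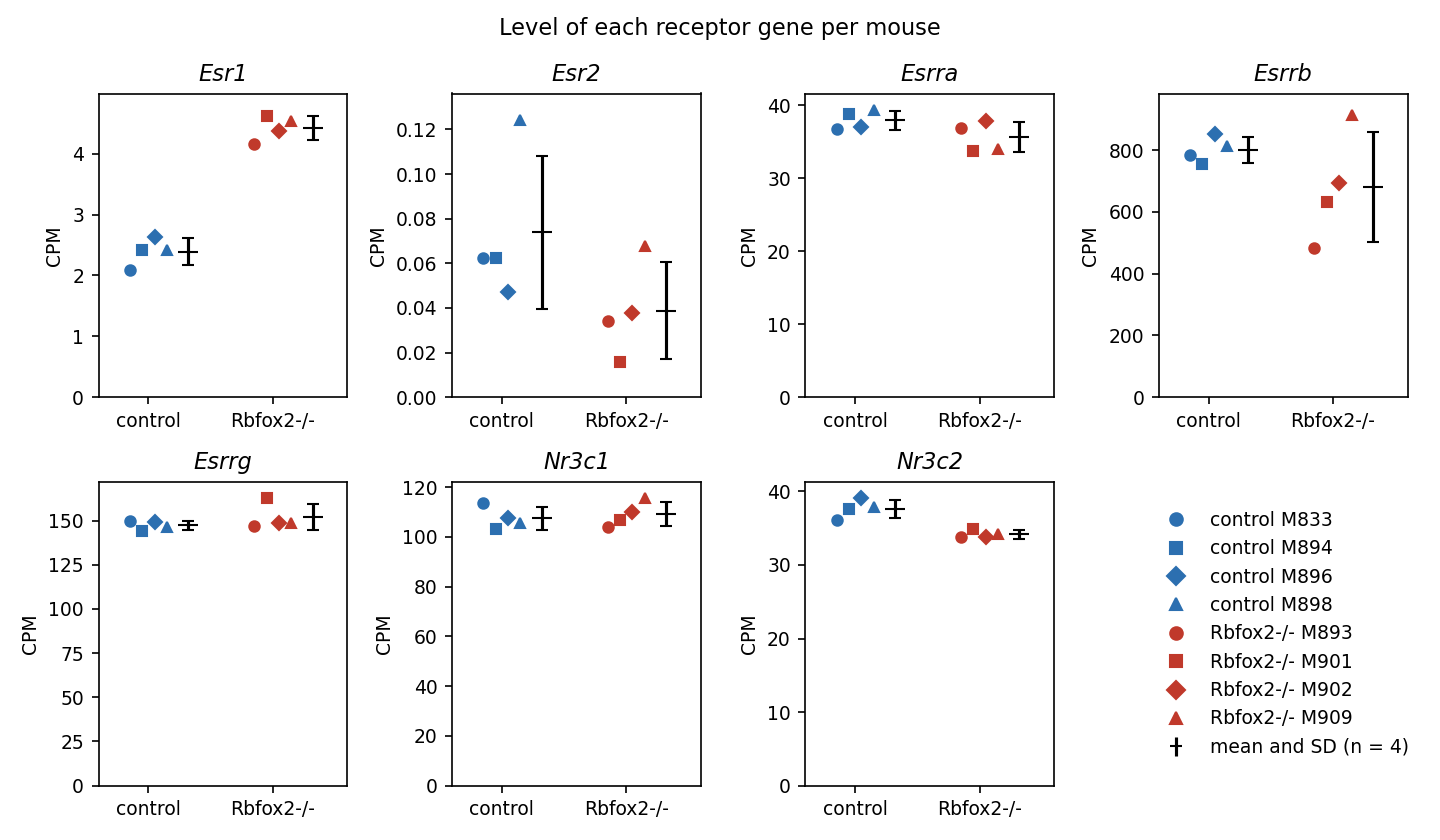
Level of each receptor gene in CPM (linear axes from 0) in 4 control and 4 Rbfox2-/- mice, 1 point per mouse, with the mean and SD beside each group. The Rbfox2-/- mice lie above all controls for Esr1 and below all controls for Nr3c2, and the groups overlap for the other 5 genes.

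The genes next to Esr1 had log2 fold changes between -0.33 and 0.24. On the side before its start, Rmnd1, Zbtb2 and Akap12 had log2 fold changes of 0.06, -0.13 and 0.13 (SE 0.091, 0.044 and 0.050). On the other side, Syne1, which lies on the minus strand with its nearer end 15303 bases beyond Esr1, had 0.04 (SE 0.095), Myct1 had -0.33 (SE 0.35) and Vip had 0.24 (SE 0.12). None of the 6 passed an FDR of 0.05 (adjusted p between 0.268 and 0.888 by edgeR's quasi-likelihood test). The 2 groups of Zbtb2 did not overlap, at 13.6 ± 0.394 CPM against 14.96 ± 0.185 CPM in controls.

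Esr2 encodes estrogen receptor beta. It had few counts in all 8 retinas, with 6, 3, 6 and 13 in M893, M901, M902 and M909 and 13, 11, 9 and 22 in M833, M894, M896 and M898. These are 0.0341, 0.0156, 0.0378 and 0.0677 CPM against 0.0625, 0.0622, 0.0470 and 0.124 CPM. The groups overlapped, since M909 was above 3 of the 4 controls, and M901 lay at the 3 counts taken as the detection limit. The log2 fold change of -0.91 had a SE of 0.49 and did not pass the test (edgeR adjusted p = 0.456), so that a difference was not detectable at these counts. It was -0.52 without M901 and M902 and -0.55 without M898. Esr1 had between 19.4 and 56 times as many counts as Esr2 in the controls and between 66.9 and 297 times as many in Rbfox2-/- retinas.

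The estrogen-related receptors were far more abundant. Esrrb, a receptor of rods that supports their energy metabolism and survival, had 484, 633, 693 and 915 CPM in M893, M901, M902 and M909, against 783, 756, 852 and 813 CPM in the controls (M833 to M898). The Rbfox2-/- mice lay on both sides of the controls, with 3 below all of them and M909 above all of them. The log2 fold change was -0.23 (SE 0.15, edgeR adjusted p = 0.544). It rested on single mice, with -0.41 without M909 (edgeR adjusted p = 0.133) and -0.10 without M893 (edgeR adjusted p = 0.748). Its SD of log2 CPM was 0.379 in Rbfox2-/- mice and 0.074 in controls.

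Esrra, which acts with the PGC-1 coactivators on mitochondrial genes, had 36.9, 33.7, 37.8 and 34.1 CPM in the Rbfox2-/- mice and 36.7, 38.8, 37.0 and 39.3 CPM in the controls, in the order of mice above. The groups overlapped, and the log2 fold change was -0.09 (SE 0.049, edgeR adjusted p = 0.454). Esrra overlaps Trmt112 on the opposite strand, and the use of strand in the counting is not given in the sources used here. Esrrg, a receptor of tissues with high oxidative demand such as brain and heart, had 147.1, 162.7, 148.7 and 148.8 CPM in the Rbfox2-/- mice and 149.7, 144.2, 149.3 and 146.5 CPM in the controls. Its log2 fold change was 0.04 (SE 0.037, edgeR adjusted p = 0.660). M901 stood alone, and the log2 fold change was 0.01 without it and 0.0026 without M901 and M902.

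Nr3c1, which mediates the glucocorticoid response and is expressed in most cells, had 104.2, 107.0, 109.9 and 115.7 CPM in the Rbfox2-/- mice and 113.8, 103.2, 107.5 and 105.5 CPM in the controls. The groups overlapped, with a log2 fold change of 0.02 (SE 0.042, edgeR adjusted p = 0.862). Nr3c2, whose receptor controls salt and water transport and is expressed in Müller glia among other retinal cells, had 33.7, 34.9, 33.7 and 34.2 CPM in the Rbfox2-/- mice and 36.1, 37.6, 39.0 and 37.9 CPM in the controls. Every Rbfox2-/- mouse was below every control. The means were 34.1 ± 0.545 CPM and 37.6 ± 1.22 CPM, a fold of 0.907 and a log2 fold change of -0.14 (SE 0.038), which did not pass the test (edgeR adjusted p = 0.215). DESeq2 gave an adjusted p of 0.0340 for Nr3c2, and over all its alternatives the adjusted p ranged from 0.0340 to 0.731. The 4 Müller glia markers Rlbp1, Glul, Slc1a3 and Apoe summed to between 4251 and 4748 CPM in Rbfox2-/- retinas and to between 4740 and 5251 CPM in controls, and the part of this shift in the level of Nr3c2 was not tested. Nr3c2 overlaps Gm10649 on the opposite strand.

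Esr1 was the 1 gene of the 7 past an FDR of 0.05 in edgeR's quasi-likelihood test, where 0.0655% of all genes tested passed in either direction, 0.0357% higher and 0.0298% lower. DESeq2 called 2 of the 7, Esr1 and Nr3c2, where it called 2.74% of all genes, 1.38% higher and 1.36% lower. The likelihood ratio test of edgeR called 1 of the 7, where it called 0.976% of all genes, 0.476% higher and 0.5% lower. Since the family was chosen through Esr1, nothing is read from these counts. The groups did not overlap for 1 gene above and 1 gene below the controls, where 3.64% of all genes tested were above, 3.39% below and 7.03% either. An unadjusted p under 0.05 was reached by 1 gene higher and 1 gene lower, where 6.42% and 6.87% of all genes reached it. The median log2 fold change of the 7 genes was -0.09, and that of all genes was 0.0016.

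The genes were next placed in order of level by the deposited FPKM, which divides the counts by the gene's length. Esrrb was highest, with between 113 and 211 FPKM over the 8 mice, a mean above that of 98.8% of the genes in the table. Esrrg followed with between 27.3 and 30.0 FPKM, and then Nr3c1 with between 16.5 and 18.2 FPKM and Esrra with between 14.9 and 17.8 FPKM. Nr3c1 and Esrra overlapped in range, and Nr3c1 was the higher of the 2 in 5 of 8 mice, so that their levels did not differ beyond the spread between mice. Nr3c2 had between 8.15 and 9.64 FPKM. Esr1 had between 0.972 and 1.06 FPKM in Rbfox2-/- retinas and between 0.478 and 0.615 FPKM in controls, and its mean lay above that of 24.4% of the genes. Esr2 was lowest with between 0.00457 and 0.0376 FPKM. The ranges of all other neighbours in this order did not overlap.

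**Figure D2:**
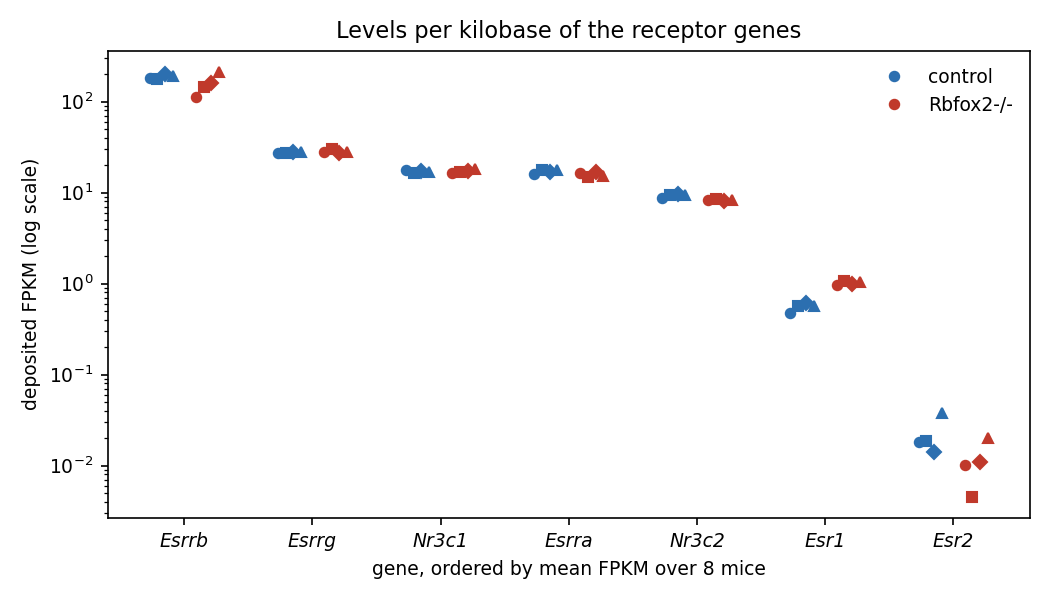
Deposited FPKM of each receptor gene on a log axis, ordered by the mean over 8 mice, with controls at the left and Rbfox2-/- mice at the right of each gene. Esr1 is the only gene of the 7 whose Rbfox2-/- points stand clear above the controls, at a level 11.2-fold below that of Nr3c2 in the mean over all mice.

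Esrrb made up between 61.8% and 75.1% of the summed FPKM of the 7 genes. Esr1 made up between 0.370% and 0.529% in Rbfox2-/- retinas and between 0.191% and 0.227% in controls. The sum of all 7 genes ranged from 184 to 282 FPKM in Rbfox2-/- retinas and from 249 to 272 FPKM in controls, with overlap. The sum of Esr1 and Esr2 was between 0.982 and 1.06 FPKM against 0.496 to 0.630 FPKM, nearly all of it Esr1.

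The spread among the control mice entered the p by which Esr1 was chosen, and for the other 6 genes it is a measure that the choice did not use. The SD of log2 CPM over the 4 controls had a median of 0.094 over all genes tested. Esrrg had the smallest SD of the 7 genes with 0.025, which exceeded that of 4.19% of the genes tested. Nr3c2 had 0.047, Esrra 0.050, Nr3c1 0.061 and Esrrb 0.074, all below that median. Esr1 had 0.136 and Esr2 0.578, which exceeded 65.3% and 95.3% of the genes.

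Within the groups, the mice in which Esr1 was high or low were compared with all 13755 genes of at least 1 CPM, as deviations of log2 CPM from the group mean. The 5 genes most like Esr1 were 2810025M15Rik, Uvrag, Stmn4, Nr3c2 and Xpc, with Pearson's r between 0.961 and 0.987 over the 8 mice, and these values were the highest of 13755. Counting error alone had an SD of 4.84% at the lowest count of Esr1. The deviations of Esr1 in Rbfox2-/- mice lay only between -0.085 and 0.064 on the log2 scale. How far counting error entered these r was not tested. Nr3c2 had r = 0.96 and a Spearman rank correlation of 0.90, and by rank it was not among the 5 genes most like Esr1. Both genes were lowest among controls in M833 and highest in M896, the mice farthest from the median of Esr1, and without these 2 mice r was 0.83 over 6 mice. The sum of the 4 ganglion cell markers Rbpms, Slc17a6, Pou4f1 and Nefl was also lowest in M833, at 380.9 CPM. This sum was between 611.6 and 638.6 CPM in the other controls and between 495.4 and 657.1 CPM in Rbfox2-/- mice. The part of these markers in the likeness was not tested. The deviations of Nr3c2 were small, from -0.061 to 0.053 on the log2 scale. Between the groups Esr1 was higher and Nr3c2 lower in every Rbfox2-/- mouse than in every control. The other receptor genes with at least 1 CPM had r of -0.25 (Nr3c1), -0.18 (Esrra), 0.23 (Esrrg) and 0.39 (Esrrb). All points share the 8 libraries and their scaling, and no test was made.

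**Figure D3:**
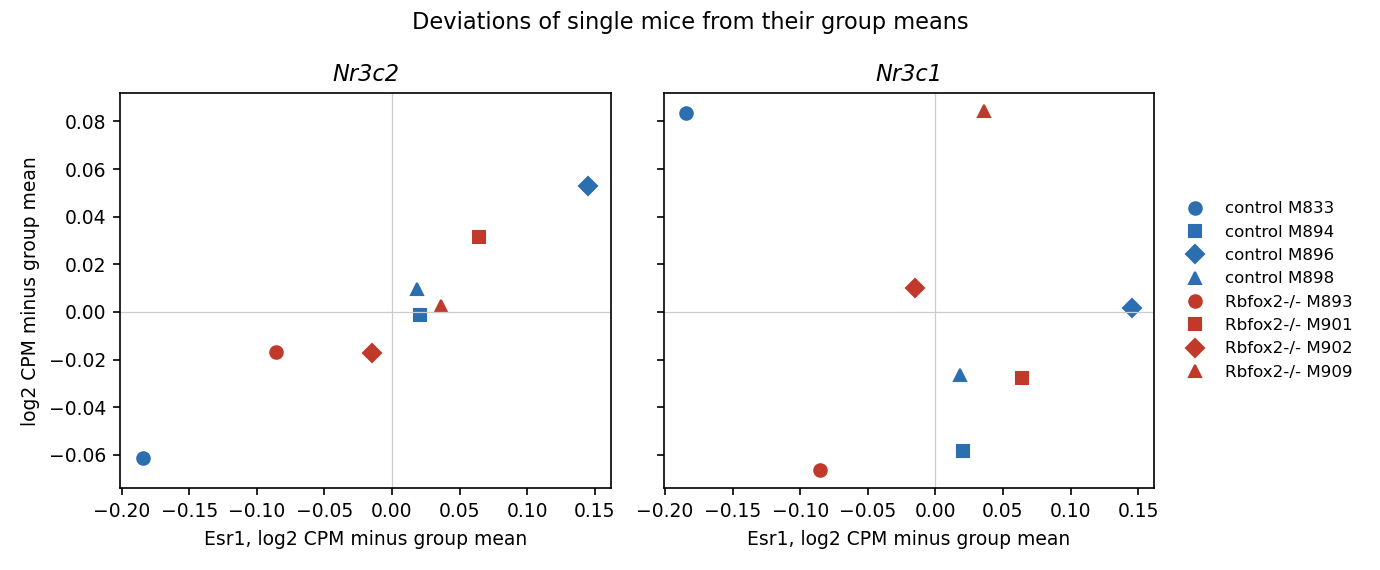
Deviation of log2 CPM from the group mean in Esr1 (horizontal) against Nr3c2 (left) and Nr3c1 (right), 1 point per mouse, 4 control and 4 Rbfox2-/- mice. The deviations of Nr3c2 go with those of Esr1, lowest in M833 and highest in M896 (r = 0.96), and those of Nr3c1 do not (r = -0.25).

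The other nuclear receptors gave the setting for these differences. Of 39 further genes listed from the superfamily, 36 had a row and 35 were tested. Their log2 fold changes ranged from -0.82 (Nr5a2) to 0.37 (Nr1h3). None passed an FDR of 0.05 by edgeR's quasi-likelihood test, 6 had an unadjusted p under 0.05, where 13.3% of all genes did, and DESeq2 called 1 of them, where it called 2.74% of all genes. Nr1h3 encodes the liver X receptor alpha, a sensor of oxysterols. It had 4.15, 4.71, 4.08 and 4.33 CPM in M893, M901, M902 and M909 and 3.39, 3.59, 3.17 and 3.26 CPM in the controls, without overlap (log2 fold change 0.37, SE 0.083, edgeR adjusted p = 0.156, DESeq2 adjusted p = 0.00510). Ppard and Ppara, receptors of fatty acids, had log2 fold changes of 0.13 (SE 0.042) and -0.51 (SE 0.17), with adjusted p of 0.264 and 0.265 from edgeR.

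**Figure D4:**
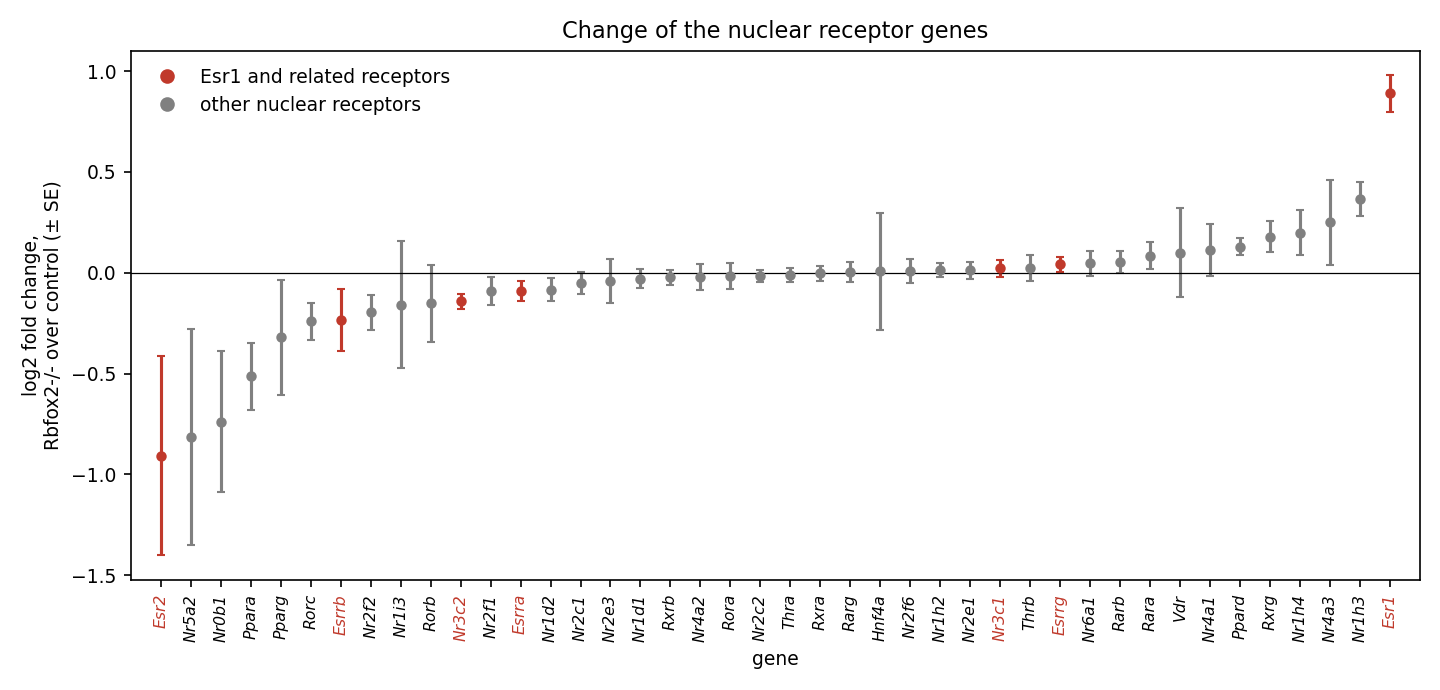
Log2 fold change of Rbfox2-/- over control retinas with its SE (bars) for 42 nuclear receptor genes in ascending order, with Esr1 and the related steroid receptors in red and the others in grey. Esr1, which was chosen by its difference, lies at 0.89, and Nr1h3 at 0.37.

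Pgr, the progesterone receptor gene and a textbook target of estrogen receptor alpha in the uterus, had 3.70 ± 0.294 CPM against 3.59 ± 0.253 CPM, with a log2 fold change of 0.04 (SE 0.092, edgeR adjusted p = 0.876), which was -0.04 without M901 and M902. Gper1, a membrane receptor of estradiol outside the nuclear receptor family, had 0.637, 0.348, 0.347 and 0.604 CPM in M893, M901, M902 and M909 and between 0.548 and 0.726 CPM in controls. The log2 fold change of -0.41 (SE 0.24, edgeR adjusted p = 0.492) rested on M901 and M902 and was -0.06 without them. The sclera and fibroblast markers were low in the same mice, and their part was not tested.

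Of 16 genes listed as estrogen receptor targets, 14 had a row and were tested, and Tff1 and Tff3 had none. None passed an FDR of 0.05 by edgeR's quasi-likelihood test or DESeq2, and 1 had an unadjusted p under 0.05, where 13.3% of all genes did. The log2 fold change was above 0 for 5 and below 0 for 9, with a median of -0.06, where 50.7% of all genes tested were above 0. Without control M898, the balance turned to 8 above and 6 below, with a median of 0.02, and without M901 and M902 the median was -0.02. Xbp1, a factor of the unfolded protein response, had 73.9, 80.9, 67.6 and 56.2 CPM in the Rbfox2-/- mice and between 56.8 and 63.7 CPM in the controls, so that M909 was below every control (log2 fold change 0.22, SE 0.095, edgeR adjusted p = 0.357). Without M901 it was 0.14, and without M901 and M902 0.12. Ltf, which encodes lactoferrin, had a log2 fold change of 1.81 (SE 0.84) through M909, which had 1.01 CPM against 0.0756 to 0.161 CPM in the other Rbfox2-/- mice and 0.0452 to 0.198 CPM in controls. Without M909 it was 0.24. The 4 cornea and conjunctiva markers summed to 67.2 CPM in M909, to at most 6.73 CPM in the other Rbfox2-/- mice and to at most 2.59 CPM in controls, and their part in the level of Ltf was not tested. Igfbp4, a binding protein of insulin-like growth factors, had a log2 fold change of -0.23 (SE 0.12), which was 0.0022 without M901 and M902. These mice had 37.8 and 38.4 CPM, against 51.5 to 59.1 CPM in the others, and also the low sums of sclera and fibroblast markers, whose part was not tested.

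Of 17 genes listed as targets of the estrogen-related receptors, which serve fatty acid oxidation, the citric acid cycle and the respiratory chain, 17 were tested. None passed an FDR of 0.05 by edgeR's quasi-likelihood test, 4 had an unadjusted p under 0.05 (1 higher, 3 lower), where 13.3% of all genes did, and DESeq2 called 1, where it called 2.74% of all genes. The median log2 fold change was -0.0053, and it turned to 0.01 without M898 and to 0.0063 without M909, while it was -0.02 without M901 and M902. Acadm, the medium-chain acyl-CoA dehydrogenase of fatty acid oxidation, had between 114.7 and 121.3 CPM in Rbfox2-/- retinas and between 103.9 and 112.6 CPM in controls, without overlap (log2 fold change 0.13, SE 0.035, edgeR adjusted p = 0.216). Pdk4, a kinase that blocks the entry of pyruvate into the citric acid cycle, had 0.341, 0.342, 0.290 and 0.323 CPM in the Rbfox2-/- mice and 0.360, 1.018, 0.538 and 1.07 CPM in the controls, M833 to M898. Its groups did not overlap, although M833 lay close to the Rbfox2-/- mice (log2 fold change -1.20, SE 0.33, edgeR adjusted p = 0.216, DESeq2 adjusted p = 0.0313). Ucp2, an uncoupling protein of the inner mitochondrial membrane, had the same log2 fold change of -1.20 (SE 0.37, edgeR adjusted p = 0.254), with 13.6 to 25.0 CPM against 20.6 to 75.9 CPM. Without M898 it was -0.74. The highest controls for both Pdk4 and Ucp2 were M894 and M898, the libraries with the high melanocyte marker sums, and the part of these markers was not tested.

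The glucocorticoid receptor list, which holds genes that this receptor induces in many tissues, had log2 fold changes below 0 for 16 of 16 genes tested, with a median of -0.18. None passed an FDR of 0.05 by edgeR's quasi-likelihood test, and 8 had an unadjusted p under 0.05, all lower, where 6.87% of all genes tested were lower at that p. DESeq2 called 5 and edgeR's likelihood ratio test 4, all lower, where they called 1.36% and 0.5% of all genes lower. Hif3a, a hypoxia-inducible factor subunit, had 6.93, 6.95, 7.81 and 8.20 CPM in the Rbfox2-/- mice and 14.1, 8.67, 16.7 and 17.6 CPM in the controls, M833 to M898 (log2 fold change -0.93, SE 0.19, edgeR adjusted p = 0.116, DESeq2 adjusted p = 0.00571). Zbtb16, a transcription factor, had 7.16, 7.81, 5.99 and 6.40 CPM against 12.4, 6.81, 13.1 and 14.7 CPM (log2 fold change -0.78, SE 0.20, edgeR adjusted p = 0.192). Per1 is a clock gene that glucocorticoids induce, and the paper's discussion describes it as upregulated in Rbfox2-/- retinas. In these counts Per1 was lower, with 116.2, 111.1, 127.2 and 115.9 CPM against 141.3, 132.7, 143.4 and 145.8 CPM in controls, without overlap (log2 fold change -0.26, SE 0.047, edgeR adjusted p = 0.0853). Glul, the glutamine synthetase of Müller glia and also one of the Müller glia markers above, had a log2 fold change of -0.17 (SE 0.048), likewise without overlap, and the part of the Müller glia markers in this list was not tested. Control M894 was lowest of the controls for Hif3a and Zbtb16 and overlapped the Rbfox2-/- mice for Zbtb16. Without M894 3 genes of the list, Hif3a, Zbtb16 and Fkbp5, passed an FDR of 0.05 (edgeR adjusted p of 0.00887, 0.0179 and 0.0167). In that fit 19 of all genes tested passed, 13 of them lower, against 11 and 5 with all mice. Over all alternatives between 13 and 16 of the 16 genes were below 0, with 13 without control M898 or without M901. Nr3c1 itself had 109 ± 4.90 CPM and 108 ± 4.57 CPM.

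**Figure D5:**
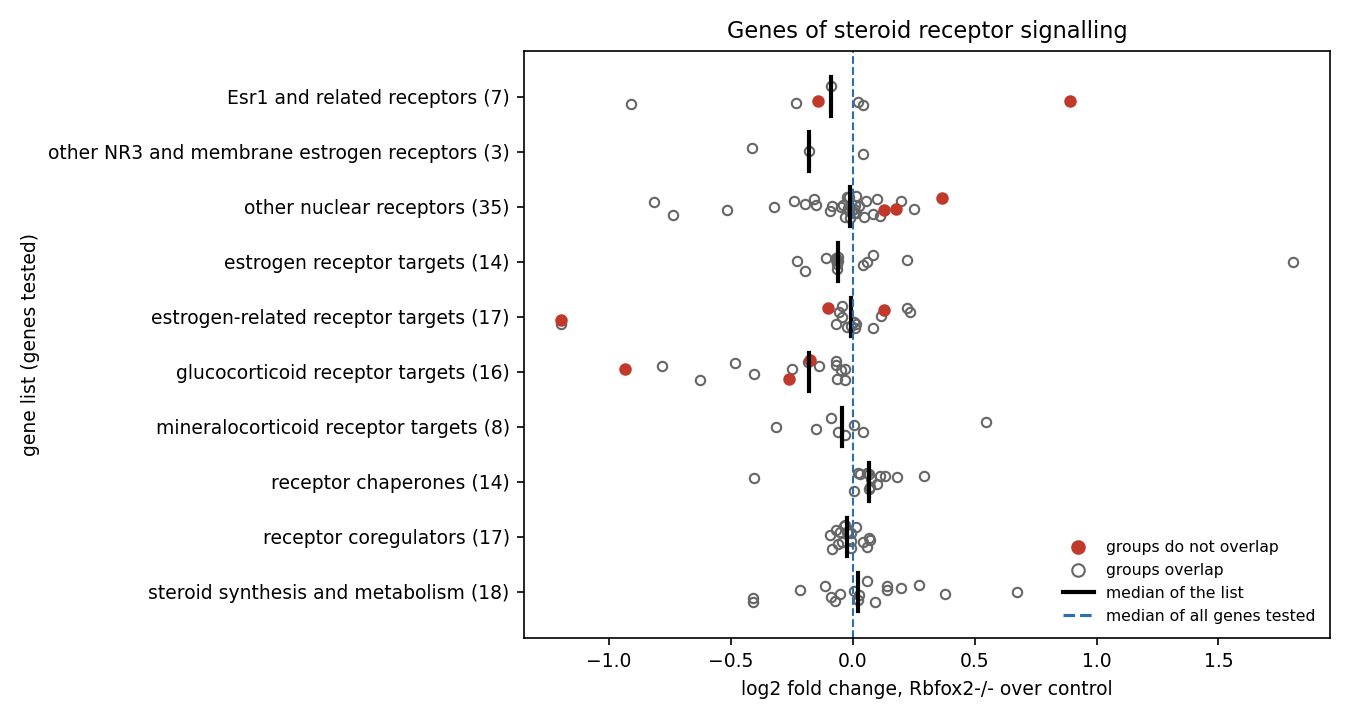
Log2 fold change of Rbfox2-/- over control retinas for each gene tested of the receptor family and of 9 lists of genes of steroid receptor signalling (1 point per gene), with the median of each list (black) beside that of all genes (dashed). The glucocorticoid receptor targets lie below 0 in 16 of 16 cases, and filled points mark genes whose groups do not overlap.

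The letters of 3 response elements were searched on both strands of the RefSeq promoters (GRCm38.p6, 250 bases before to 50 bases after a start) of the receptor genes and of the target lists. They were GGTCA, any 3 bases and TGACC for estrogen receptors, TCAAGGTCA for estrogen-related receptors, and GNACA, any 3 bases and TGTNC for glucocorticoid and mineralocorticoid receptors. Of all 32851 promoters, 0.0700%, 0.423% and 0.475% held these letters. The 11 promoters of 6 of the receptor genes, Nr3c1 being without an entry, held none of them. Of 19 promoters of the estrogen receptor targets, 0 held the estrogen element. Of 15 promoters of the estrogen-related receptor targets, 0 held the estrogen-related element. The targets held the glucocorticoid element in 2 places, in 2 of 24 promoters of the glucocorticoid list. These are shown here because they belong to genes of that list, with the matched letters in capitals and 5′ to 3′ on the strand of the gene.
Sgk1, chr10:21993697-21993719: ggaaaGAACAGAATGTTCtcgga
Mt1, chr8:94178990-94179012: tatagGGACATGATGTTCcacac
Sgk1, which encodes a kinase induced by both receptors and stands in both lists, had 434 CPM in Rbfox2-/- retinas and 443 CPM in controls on average (log2 fold change -0.03, SE 0.070). Mt1, a metallothionein, had 33.1 and 46.3 CPM (log2 fold change -0.48, SE 0.13, edgeR adjusted p = 0.215). Both were named for the match, after their values were seen. Other promoters of Sgk1 held the letters of the estrogen-related element in 2 places, cgggcTGACCTTGAacttt at chr10:21978604-21978622 and cgagtTCAAGGTCAtccgg at chr10:21985995-21986013.

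Of 9 genes listed as mineralocorticoid receptor targets, 8 were tested, with 3 log2 fold changes above 0 and 5 below 0 and a median of -0.04, which was 0.0056 without M901 and M902 (4 above, 4 below). None passed an FDR of 0.05 (edgeR, DESeq2) and 0 had an unadjusted p under 0.05, where 13.3% of all genes did. The sodium pump subunit gene Atp1b1 had a log2 fold change of -0.09 (SE 0.072), and Slc12a3, a sodium chloride cotransporter of the kidney, had 0.55 (SE 0.36) at between 0.0452 and 0.172 CPM, with 0.84 without M894 and 0.31 without M898. Atp1b1 had -0.16 without M833.

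Among 14 genes listed as chaperones and co-chaperones of steroid receptors, 13 had a log2 fold change above 0, with a median of 0.07. Without M901 and M902 it was 10 of 14, with a median of 0.03. None passed an FDR of 0.05 by edgeR's quasi-likelihood test, 5 had an unadjusted p under 0.05 (4 higher, 1 lower), where 13.3% of all genes did (6.42% higher, 6.87% lower), and DESeq2 called 2, where it called 2.74% of all genes. Hspa8, the constitutive HSP70, had 565, 612, 523 and 423 CPM in the Rbfox2-/- mice and between 419 and 454 CPM in the controls, so that M909 lay within the control range (log2 fold change 0.29, SE 0.095, edgeR adjusted p = 0.268, DESeq2 adjusted p = 0.0478), which was 0.19 without M901 and M902. Hspa4 had 0.13 (SE 0.050). The gene below 0 was Fkbp5, a co-chaperone of the glucocorticoid receptor that the receptor itself induces. It had 34.6, 31.9, 34.6 and 36.1 CPM in the Rbfox2-/- mice and 47.7, 34.0, 48.5 and 51.6 CPM in the controls, M894 being the low one (log2 fold change -0.41, SE 0.11, edgeR adjusted p = 0.216, DESeq2 adjusted p = 0.0120). Without M894 the adjusted p of Fkbp5 was 0.0167 (edgeR).

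The 17 coregulators, which include the NCOA coactivators and the PGC-1 genes, had log2 fold changes between -0.09 and 0.07. Of these, 5 were above and 12 below 0 (9 above and 8 below without M833). None passed an FDR of 0.05 (edgeR, DESeq2), and 0 had an unadjusted p under 0.05, where 13.3% of all genes did. Carm1, Ncoa3 and Ncoa1 had the lowest p, with log2 fold changes of 0.06, -0.09 and -0.05 (SE 0.034, 0.054 and 0.042). Of 24 genes of steroid synthesis and metabolism, 18 had a row and were tested. Those without a row included Cyp19a1, the aromatase that makes estradiol, and Cyp17a1. None of the 18 passed an FDR of 0.05 (edgeR, DESeq2). An unadjusted p under 0.05 was reached by 2, both higher, where 13.3% of all genes reached it (6.42% higher). Of the 18, 11 were above 0 with a median of 0.02, and without M901 and M902 9 were above 0 with a median of 0.0041. The 2 were Fdxr, the reductase that feeds electrons to mitochondrial steroid hydroxylases (log2 fold change 0.20, SE 0.075), and Hsd17b7 (0.14, SE 0.059). Hsd17b2, which inactivates estradiol to estrone, had 0.676, 0.425, 0.473 and 1.36 CPM in the Rbfox2-/- mice and between 0.441 and 0.474 CPM in the controls, with M909 highest (log2 fold change 0.67, SE 0.34, edgeR adjusted p = 0.424). It was 0.19 without M909 and 1.14 without M901 and M902. M909 was also the mouse with the high cornea and conjunctiva marker sum, whose part was not tested.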

How the data were processed

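RNA of whole retina from 4 Rbfox2-/- and 4 control mice was analysed, grouped by the genotype labels. The authors sequenced poly(A)-selected libraries as paired reads, aligned them to mm10 with STAR, kept uniquely mapped reads and deposited fragment counts per gene from HTSeq, not normalized. The methods name both a RefSeq and an Ensembl annotation, and the gene length behind the FPKM values that the authors deposited is not given in the sources used here. The submitters' processing notes name CASAVA 1.8.2 and edgeR. All 17500 genes listed reach 5 counts in 4 or more mice. Beside these, the deposited table holds scaled counts and the authors' fold changes, p-values and FDR, which were not used.

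In edgeR 4.0.16 under R 4.3.3, low counts were removed (filterByExpr), libraries scaled (TMM) and the genotypes compared by a quasi-likelihood test that had no covariate, with Benjamini-Hochberg adjustment over all genes tested. CPM values are counts per 1000000 counts of normalized library size. The standard error was taken as the absolute log2 fold change over the root of the F statistic. Log2 CPM for spreads and deviations used a prior count of 0.5. Deposited FPKM served for levels between genes only, without a test. Genes were placed on GENCODE M21 (GRCm38) by symbol, P box codons were found by translating the transcripts with Biopython 1.88, and no protein sequences were used. As alternatives, the comparison was repeated with DESeq2 1.42.0, with voom of limma 3.58.1, with the likelihood ratio test of edgeR, with other normalizations and count filters, and with libraries left out. The procedure was tested on simulated counts. The 12 pairs of libraries within the groups all differed by more than counting noise. The p-values set the difference between the groups against the spread between mice within them, which is estimated in part from all genes tested. M901 and M902, the mice with high Xist, are part of that spread.

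The receptor genes, the lists and the tests were chosen with earlier results of these data known. The genes named are the 7 receptor genes, Rbfox2, Xist, Pgr and Gper1, of each list the 3 with the lowest p, the 5 most like Esr1, its 3 nearest neighbours with a row on each side, and markers of the cell types given. Some genes that the rule takes in are not reported here, and genes named beyond it are marked as such. Per mouse, 160630226 to 211283591 fragments were counted, so that precision for most genes was limited by the 4 mice per group, and for Esr2 by its 3 to 22 counts. The physiological and histological experiments were not analysed here.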

Additional observations from a re-analysis of the deposited data

Results flagged for a closer look

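In 78 groups of 4 mice (39 genes in 2 groups), a mouse was marked where its gap to the nearest other mouse took up more of the range of the group than Dixon's 95% limit allows, and 3 were found, where chance alone gives about 1 in 20, or 3.90. In M901, Esrrg had 162.7 CPM against 147.1 to 148.8 CPM in the other Rbfox2-/- mice. In M909, Ltf had 1.01 CPM against 0.0756 to 0.161 CPM in the other Rbfox2-/- mice. In M833, Hspa4 had 239.9 CPM against 211.05 to 215.6 CPM in the other controls.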

How the results depend on the processing

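Over 16 alternatives the log2 fold change of Esr1 stayed between 0.83 and 0.94 and that of Nr3c2 between -0.16 and -0.12. Esr1 missed an FDR of 0.05 without M901 (0.87, adjusted p = 0.0560 from edgeR) and without M901 and M902 (0.86, adjusted p = 0.204 from edgeR), and Nr3c2 passed with DESeq2 alone (-0.14, adjusted p = 0.0340). Nr3c1 turned to -0.0059 without M909. With each mouse left out in turn the log2 fold changes ranged from 0.83 to 0.94 (Esr1) and from -0.0059 to 0.048 (Nr3c1). Of all genes, 460 passed with DESeq2, 164 with edgeR's likelihood ratio test, 1 without M901 and M902, and between 5 and 35 with each mouse left out, against 11. Of the 7 receptor genes, 2 passed with DESeq2, 0 without M901 and M902, and between 0 and 1 with each mouse left out. DESeq2 called 1 of the other nuclear receptors, 1 target of the estrogen-related receptors, 5 glucocorticoid receptor targets and 2 chaperones, and the likelihood ratio test called 4 glucocorticoid receptor targets. With each mouse left out, between 0 and 3 glucocorticoid receptor targets and between 0 and 1 chaperones passed, the highest values without M894. The sign also turned for Pgr (-0.00062 without M833, -0.043 without M901 and M902, up to 0.096 without M909), Igfbp4 (0.0022 without M901 and M902), Uvrag (0.0039 without M896, down to -0.042 without M833) and 2810025M15Rik (-0.055 without M833, -0.0094 without M901, -0.0040 without M909, -0.021 without M901 and M902, up to 0.062 without M896). For likeness to Esr1, Spearman's correlation shared 2 of the 5 genes, 2810025M15Rik and Xpc. The cause of these shifts was not tested beyond the fewer samples in the fits that leave mice out. Esr2, Ltf and Slc12a3 gave no value with at least 10 counts required in every sample. No paired analysis was possible because the labels give the mice no shared replicate numbers. Counts limit Esr2, with 3 to 22 counts per mouse.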
